A study of Mus musculus with 13 samples.

Results

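Frontotemporal dementia (FTD) and amyotrophic lateral sclerosis (ALS) share a set of causal genes in humans, and GRN, which encodes progranulin, is among them. The mouse counterparts of 9 such genes beside Grn were followed in aged mouse cortex: Mapt, Tardbp, Vcp, Chmp2b, 3110043O21Rik (the table's symbol for mouse C9orf72), Sqstm1, Tbk1, Optn and Ubqln2. They were taken by name, and all 9 stood among the 13482 genes listed in each of the 3 deposited comparison tables. Cortical RNA was sequenced from male animals at 18 months of age: 4 Grn-/-;GRNtg mice (humanized mice), in which human GRN is supplied by a transgene in place of the deleted mouse gene, 4 Grn+/- mice with a single mouse copy, and 5 wild-type (Grn+/+) mice. The series asks how a shortage of mouse or of human progranulin alters the cortical transcriptome. Which promoter drives the transgene, and in how many copies, was not given in the sources used here. Neurons were looked for by markers: all 10 cortical neuron markers examined were measured, the lowest at a mean normalized count of 908, and 0 were at 0. No marker of another brain region was compared, so this cannot tell cortex from other regions. The p-values measure the spread between these mice, and no label gives a batch.

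The proteins of these genes meet in a few pathways. Cargo tagged with ubiquitin is collected by autophagy receptors, which the kinase TBK1 phosphorylates, or is handed to the proteasome by shuttle proteins and by the unfolding ATPase VCP. Endosomes and lysosomes, where progranulin itself ends up, are shaped by ESCRT-III and by the complex that holds C9orf72. Tau, encoded by MAPT, and TDP-43, encoded by TARDBP, are the proteins that aggregate in most FTD brains, and inclusions of TDP-43 mark the disease caused by GRN mutations.

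Of the 9 genes, 0 passed the authors' adjusted p under 0.05 in Grn-/-;GRNtg against wild type, 1 passed in Grn+/- against wild type, and 0 passed in Grn-/-;GRNtg against Grn+/-. Over all genes the share that passed was 4.87%, 6.80% and 0.467% in those comparisons, so 0 or 1 of 9 is near the background share. The call was Sqstm1, which rose by 12.9% in Grn+/- cortex. At an unadjusted p under 0.05, 1 of 9 genes passed in Grn-/-;GRNtg against wild type, 2 of 9 in Grn+/- against wild type and 0 of 9 between the mutant groups, against 20.5%, 20.2% and 8.99% of all genes. Mouse Grn, the check of the genotypes, had derived levels of 295 normalized counts in Grn-/-;GRNtg, 760 in Grn+/- and 1195 in wild type. In Grn-/-;GRNtg that is 24.7% of the wild-type level, lower than wild type but not 0 although the mouse gene is deleted. Which reads were counted for Grn was not tested. Whether the fold changes behind these levels were drawn towards 0 was not given in the sources used here. If they were, the levels lie too close together, and 24.7% is not a measured residue. Its log2 fold change against wild type was -2.02 ± 0.081 in Grn-/-;GRNtg and -0.65 ± 0.077 in Grn+/-, in the authors' deposited tables, where ± gives the standard error.

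The tables hold no values per mouse. Levels per genotype are therefore derived here from the authors' mean normalized count over the 13 libraries and their fold changes, and carry no spread of their own. The error of each difference is the authors' standard error (SE), from which the 95% intervals were computed. Where other genes are set beside each other by count, as for overlapping genes, markers and like patterns, no length was used. Levels of the 9 genes were ranked per kb of merged exon, taken from the GENCODE M21 annotation on GRCm38. On that scale Sqstm1 was highest, with a level of 2913 mean normalized counts per kb, more than 98.7% of genes. Mapt (1707 per kb), Ubqln2 (1237 per kb), Vcp (827 per kb) and Tardbp (468 per kb) followed, then Chmp2b at 340 per kb and Tbk1 at 230 per kb. The lowest levels belonged to Optn, at 108 per kb, and 3110043O21Rik, at 75.9 per kb. The median gene stood at 108 per kb, so that 7 of the 9 transcripts were above it.

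**Figure D1:**
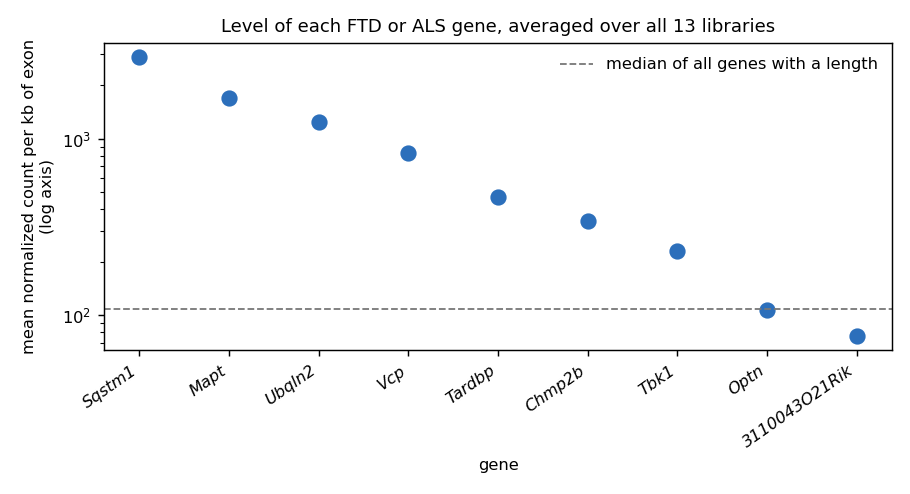
Mean normalized count per kb of merged exon (log axis) of the 9 genes, over all 13 libraries of the 3 genotypes, with no error because the tables hold no values per mouse. Points run from 2913 per kb for Sqstm1 to 75.9 per kb for 3110043O21Rik, and the dashed line marks the median gene at 108 per kb.

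Sqstm1 encodes sequestosome 1 (p62), an autophagy receptor that binds ubiquitin chains on one side and LC3 family proteins on the other. Its derived level was 10393 normalized counts in Grn+/- and 9206 in wild type. The log2 fold change of Sqstm1 was 0.17 ± 0.052 (SE) in Grn+/- against wild type (adjusted p = 0.019, the authors' deposited table). That is 112.9% of the wild-type level, with a 95% interval of 105.2% to 121.1%. Ranked by p, Sqstm1 was number 515 of 13482 genes in this comparison, and 78.9% of genes had a smaller absolute fold change. Its SE was smaller than that of all but 2.87% of genes, and a log2 difference of 0.15 was enough to pass.

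In Grn-/-;GRNtg cortex the derived level of Sqstm1 was 9869 normalized counts, against 9206 in wild type. The log2 fold change of Sqstm1 was 0.10 ± 0.052 there (adjusted p = 0.25, the authors' deposited table), and the 95% interval ran from 99.9% to 115.0% of wild type. Set directly against Grn+/-, Grn-/-;GRNtg had 94.95% of the Sqstm1 level, with an interval of 88.2% to 102.2%. For that difference the authors' deposited table gives -0.07 ± 0.054, adjusted p = 0.76. The mutant groups were thus not shown to differ in Sqstm1, although it passed against wild type in Grn+/- alone. The call in Grn+/- ended when the Wald statistics were divided by their robust spread over all genes (adjusted p = 0.61), with Bonferroni adjustment, and with a least absolute log2 fold change of 0.3. Under the 4 remaining settings the authors' call stood, with adjusted p between 0.017 and 0.027, though the threshold of 0.1 could not have ended it.

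The Sqstm1 gene lies on chromosome 11 (50199366 to 50210827, minus strand, GRCm38), 52.2 Mb from Grn. Its exons overlap those of Mrnip, which runs on the opposite strand, over 580 bp, or 17.3% of the exonic length of Sqstm1. Mrnip, chosen for this overlap after its values were seen, is listed under its older symbol 3010026O09Rik and had a mean normalized count of 220, against 9775 for Sqstm1. Mrnip was itself higher in Grn+/- against wild type, by 0.42 ± 0.103 on the log2 scale (adjusted p = 0.0027, the authors' deposited table). Mrnip was at 0.29 in Grn-/-;GRNtg against wild type (adjusted p = 0.074, the authors' deposited table). Libraries were directional, but the strand setting of the counting was not given in the sources used here, so whether both genes share reads was not tested.

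The stretch before the start site of Sqstm1 is shown because it is the promoter of the 1 gene of the set that was called. It spans chr11:50210831-50211070 on the minus strand of GRCm38.p6, from RefSeq, printed 5′ to 3′ from 250 to 11 bases before the RefSeq start, and capitals mark GC boxes (GGGCGG on either strand).

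Sqstm1: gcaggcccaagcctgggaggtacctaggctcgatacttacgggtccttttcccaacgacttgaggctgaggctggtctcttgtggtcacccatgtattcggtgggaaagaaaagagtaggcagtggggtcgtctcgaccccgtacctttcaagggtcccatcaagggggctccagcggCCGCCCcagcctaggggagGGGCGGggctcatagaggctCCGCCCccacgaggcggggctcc

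Within the 250 bases searched, Sqstm1 had 3 GC boxes, a motif held by 32.7% of the 32817 mouse promoter windows of that length. The E-box of the lysosomal CLEAR type (CACGTG, in 6.02% of windows) and the core of the antioxidant response element (TGACNNNGC on either strand, in 10.2% of windows) had 0 matches there. Promoter entries matched 7 of the 9 genes. Among them Vcp alone held the antioxidant response core, with 1 match, and none held the E-box. These letter matches are descriptions of the windows and say nothing of binding.

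Optn encodes optineurin, an autophagy receptor whose binding to ubiquitin and LC3 is strengthened when TBK1 phosphorylates it. Its derived level was 433 normalized counts in Grn-/-;GRNtg, 393 in Grn+/- and 389 in wild type. The log2 fold change of Optn was 0.15 ± 0.084 in Grn-/-;GRNtg against wild type (unadjusted p = 0.065, adjusted p = 0.28, the authors' deposited table). In Grn+/- against wild type the authors' deposited table gives 0.02 ± 0.084 for Optn, with adjusted p = 0.94. Optn had the largest absolute difference of the 9 genes between the mutant groups, a log2 value of 0.14 ± 0.087 (adjusted p = 0.70, the authors' deposited table). No comparison passed, and the interval of that difference ran from 97.7% to 123.9% of the Grn+/- level.

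Tbk1, the kinase of that receptor system and of innate immune signalling, had derived levels of 902 normalized counts in Grn-/-;GRNtg, 896 in Grn+/- and 898 in wild type. Its log2 fold change was 0.0063 ± 0.067 in Grn-/-;GRNtg against wild type (adjusted p = 0.97, the authors' deposited table). For Grn+/- against wild type the authors' deposited table gives -0.0037 ± 0.067 for Tbk1, with adjusted p = 0.99. These were the smallest absolute fold changes of the 9 genes in both comparisons, and the 95% intervals were 91.7% to 110.0% of wild type in Grn-/-;GRNtg and 91.1% to 109.2% in Grn+/-. Set against Grn+/-, Grn-/-;GRNtg was at 0.01 ± 0.070 for Tbk1 (adjusted p = 0.98, the authors' deposited table).

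Among other autophagy receptors and partners of TBK1, 1 of 16 measured genes was lower in Grn-/-;GRNtg against wild type and 0 were higher, with a list median of -0.04 (log2) beside 0.0050 over all genes. In Grn+/- against wild type 3 of 15 were lower and 0 higher, with a median of -0.0018 beside 0.0082. Lower genes made up 3.05% and 4.51% of all genes in those comparisons. Traf3, an adaptor of immune receptors upstream of TBK1, fell by 0.33 (SE 0.096) in Grn-/-;GRNtg and by 0.38 (SE 0.096) in Grn+/-, log2 values of the authors' deposited tables, which share their wild-type mice. Myo6, the myosin that carries optineurin-bound vesicles, fell by 0.35 (SE 0.104) in Grn+/- in the authors' deposited table. Wdfy3, a scaffold of selective autophagy also called Alfy, fell by 0.28 (SE 0.085) in Grn+/- in the authors' deposited table. The receptors nearest to Sqstm1 in function did not pass: Nbr1 was at 0.03 ± 0.054 in Grn-/-;GRNtg and 0.03 ± 0.054 in Grn+/-, in the authors' deposited tables. Tax1bp1 was at 0.07 ± 0.051 in each of the authors' deposited tables. Tank, an adaptor of TBK1, was at -0.03 ± 0.105 in Grn-/-;GRNtg and 0.0072 ± 0.105 in Grn+/-, in the authors' deposited tables.

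Of 28 genes of the core autophagy machinery, 0 passed in Grn-/-;GRNtg against wild type. In Grn+/- against wild type 2 of 28 were higher, where 2.29% of all genes were, and 0 were lower. These were Gabarapl1, an LC3 relative to which receptors dock, at 0.17 ± 0.051, and Uvrag, a partner of the autophagy lipid kinase, at 0.23 ± 0.066 in the authors' deposited table. The list medians were 0.02 in Grn-/-;GRNtg and 0.04 in Grn+/-, beside 0.0050 and 0.0082 over all genes.

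Vcp encodes the AAA ATPase that pulls ubiquitin-tagged proteins out of membranes and complexes. The derived level of Vcp was 4153 normalized counts in Grn-/-;GRNtg, 4127 in Grn+/- and 3801 in wild type. In the authors' deposited table for Grn-/-;GRNtg against wild type the log2 fold change of Vcp was 0.13 ± 0.058, with unadjusted p = 0.027 and adjusted p = 0.18. For Grn+/- against wild type the authors' deposited table gives Vcp at 0.12 ± 0.058, with unadjusted p = 0.040 and adjusted p = 0.22. The 95% intervals, from 101.0% to 118.2% and from 100.4% to 117.4% of wild type, lie just above 100%, but neither difference passed over all genes. Vcp was, between the mutant groups, at 0.01 ± 0.060 (adjusted p = 0.98, the authors' deposited table). Cofactors of Vcp did not pass in Grn-/-;GRNtg against wild type (0 of 23), and in Grn+/- 1 of 23 was lower and 0 higher: Ubxn2b at -0.30 ± 0.092 in the authors' deposited table. That count is near the 4.51% of all genes that were lower there.

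Ubqln2, a single-exon gene on chromosome X, encodes ubiquilin 2, which shuttles ubiquitin-tagged proteins to the proteasome. It had derived levels of 4330 normalized counts in Grn-/-;GRNtg, 4101 in Grn+/- and 4014 in wild type. The log2 fold change of Ubqln2 was 0.11 ± 0.069 in Grn-/-;GRNtg against wild type (adjusted p = 0.37, the authors' deposited table). In Grn+/- it was at 0.03 ± 0.069 (adjusted p = 0.86, the authors' deposited table), and between the mutant groups at 0.08 ± 0.072 (adjusted p = 0.84, the authors' deposited table). None of the 3 passed. Its relatives Ubqln1 and Ubqln4 did not pass in any comparison either, and whether reads are shared within this family was not tested. Ubqln1 was at 0.02 ± 0.057 in Grn-/-;GRNtg and 0.08 ± 0.057 in Grn+/- in the authors' deposited tables. Ubqln4 was at -0.14 ± 0.061, adjusted p = 0.16, in Grn-/-;GRNtg and at -0.03 ± 0.061 in Grn+/- in the authors' deposited tables.

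Rad23b, a shuttle of another family, was higher in Grn+/- against wild type by 0.18 ± 0.061 (adjusted p = 0.042, the authors' deposited table). Its difference from the ubiquilins was not tested. Of the 5 genes of the shuttle list 0 passed in Grn-/-;GRNtg against wild type. In Grn+/- against wild type 2 of the 5, Rad23b among them, were higher and 0 lower, where 2.29% of all genes were higher. The list medians were 0.02 in Grn-/-;GRNtg and 0.08 in Grn+/-, beside 0.0050 and 0.0082 over all genes.

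Chmp2b is a subunit of ESCRT-III, the filament that pinches vesicles off into endosomes on their way to the lysosome. Its derived level was 686 normalized counts in Grn-/-;GRNtg, 673 in Grn+/- and 616 in wild type. The log2 fold change was 0.16 ± 0.095 for Chmp2b in Grn-/-;GRNtg against wild type (adjusted p = 0.35, the authors' deposited table), the largest of the 9 genes there. In Grn+/- the authors' deposited table gives Chmp2b at 0.13 ± 0.095, with adjusted p = 0.47. It also had the widest SE of the 9, so that a log2 difference of 0.29 in Grn-/-;GRNtg and 0.28 in Grn+/- would have been needed to pass. Chmp2b was at 0.03 ± 0.098 between the mutant groups (adjusted p = 0.97, the authors' deposited table).

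Among the other ESCRT-III and Vps4 genes, 0 of 13 passed in humanized mice against wild type, and 3 of 13 were higher in Grn+/- against wild type with 0 lower, where 2.29% of all genes were higher. In the authors' deposited table Chmp6 rose by 0.26 ± 0.060 (adjusted p = 0.0016) and Chmp3 by 0.18 ± 0.049 (adjusted p = 0.012). Chmp4b, the main filament subunit, rose by 0.15 ± 0.048 (adjusted p = 0.040, the authors' deposited table). List medians were 0.03 in humanized mice and 0.04 in Grn+/-, beside 0.0050 and 0.0082 over all genes. Chmp2a, the closest relative of Chmp2b, was at 0.02 ± 0.062 in humanized mice and 0.07 ± 0.062 in Grn+/- in the authors' deposited tables, and did not pass. Between Grn-/-;GRNtg and Grn+/-, 0 of 14 genes of this list passed.

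3110043O21Rik, the mouse C9orf72 gene on chromosome 4, encodes a DENN-domain protein that acts with Smcr8 and Wdr41 in endosomal and lysosomal traffic. Repeat expansions in an intron of its human counterpart cause FTD and ALS. Its derived levels were 346 normalized counts in Grn-/-;GRNtg, 348 in Grn+/- and 353 in wild type. Log2 fold changes of 3110043O21Rik were -0.03 ± 0.077 and -0.02 ± 0.077 for Grn-/-;GRNtg and Grn+/- against wild type, with adjusted p = 0.88 and 0.92 in the authors' deposited tables. The 95% intervals reached from 88.4% to 109.0% and from 88.7% to 109.4% of wild type, and neither passed. Smcr8 was at -0.02 ± 0.085 in Grn-/-;GRNtg and -0.00060 ± 0.085 in Grn+/-, in the authors' deposited tables. Wdr41 was at 0.06 ± 0.066 in Grn-/-;GRNtg and 0.09 ± 0.066 in Grn+/-, in the authors' deposited tables, so that 0 of the 2 partners passed. For 3110043O21Rik itself the mutant groups differed by -0.0051 ± 0.080 (adjusted p = 0.997, the authors' deposited table).

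Tardbp encodes TDP-43, a nuclear protein that binds RNA and represses the use of cryptic exons. Its derived levels were 3559 normalized counts in Grn-/-;GRNtg, 3600 in Grn+/- and 3764 in wild type. The log2 fold change of Tardbp was -0.08 ± 0.072 in Grn-/-;GRNtg against wild type (adjusted p = 0.56, the authors' deposited table). In Grn+/- it was -0.06 ± 0.072 (adjusted p = 0.68, the authors' deposited table). Neither passed, and 2 of the 9 genes in Grn-/-;GRNtg and 3 in Grn+/- had values below 0. For Tardbp the mutant groups differed by -0.02 ± 0.075 (adjusted p = 0.98, the authors' deposited table). Masp2 overlaps 23.3% of the exonic length of Tardbp on the opposite strand, and 1700022I11Rik overlaps 7.26% of that of Vcp. Whether these pairs share reads was not tested either. Unlike for Mrnip, no value was found for Masp2 or 1700022I11Rik in Grn+/- against wild type. Opposite-strand genes also overlap 5.37% of the exonic length of 3110043O21Rik and 1.95% of that of Optn.

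Mapt encodes tau, which binds and spaces axonal microtubules. It lies 1.79 Mb from Grn on chromosome 11 (104231390 to 104332090, plus strand, GRCm38). The derived levels of Mapt were 12907 normalized counts in Grn-/-;GRNtg, 12986 in Grn+/- and 12704 in wild type. Log2 fold changes of 0.02 ± 0.042 in Grn-/-;GRNtg and 0.03 ± 0.042 in Grn+/- had adjusted p = 0.80 and 0.73 in the authors' deposited tables. Mapt had the smallest SE of the 9 genes, smaller than all but 0.281% and 0.297% of genes in those tables. Its 95% intervals were accordingly narrow, from 95.9% to 107.6% of wild type in Grn-/-;GRNtg and from 96.5% to 108.2% in Grn+/-. For Mapt the mutant groups differed by -0.0088 ± 0.044 (adjusted p = 0.98, the authors' deposited table).

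**Figure D2:**
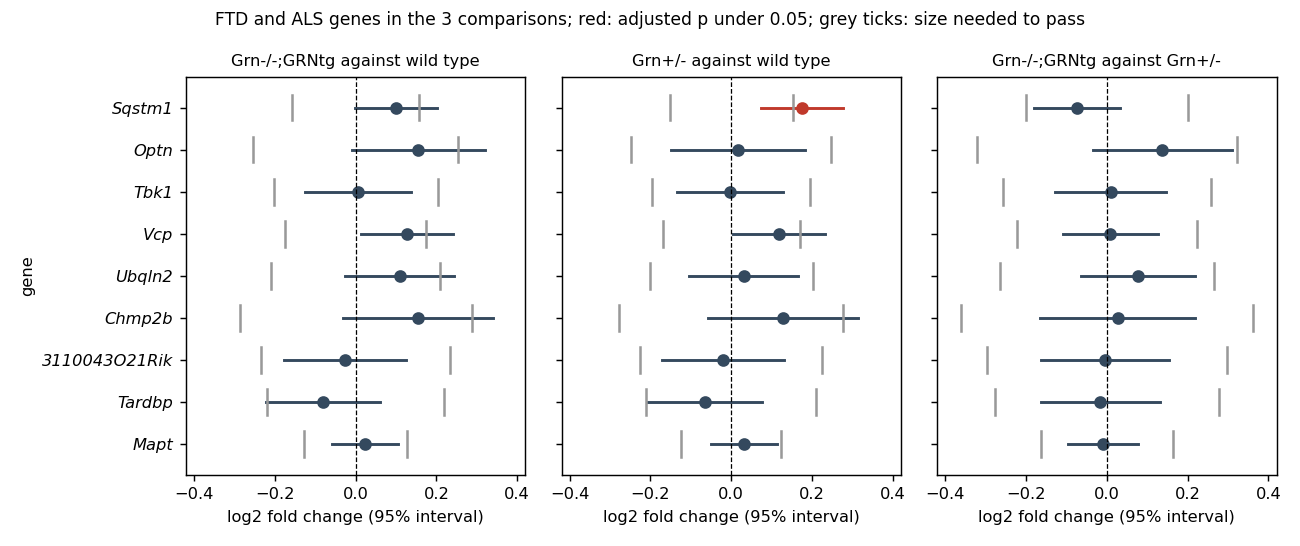
Log2 fold change (x axis) of each of the 9 genes (rows) in the 3 comparisons (panels), as points with 95% intervals from the authors' SE. Grey ticks mark the size that would have passed at that SE. Sqstm1 at 0.17 in Grn+/- against wild type, in red, is the 1 point beyond its tick.

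The intervals rest on the authors' SEs, which stay under 0.138 for every gene of the tables. Between the mutant groups that held down to a mean normalized count of 0.523. Whether fold changes were drawn towards 0 was not given in the sources used here. If they were, the percents of wild type and the derived levels understate differences, more so for genes with wide SEs such as Chmp2b. The robust spread of the Wald statistics over all genes was 1.56 in Grn-/-;GRNtg against wild type, 1.49 in Grn+/- against wild type and 1.10 between the mutant groups, where a standard normal has 1. The intervals are therefore no bound on a change that went unseen. Of 9 intervals, 7 lay wholly between -0.3 and 0.3 on the log2 scale in Grn-/-;GRNtg against wild type, and in the other comparisons 8 of 9 did. The exceptions were Chmp2b and Optn in Grn-/-;GRNtg against wild type, Chmp2b in Grn+/- against wild type and Optn between the mutant groups, with upper bounds between 0.31 and 0.34. The size needed to pass ran from 0.13 (Mapt) to 0.29 (Chmp2b) in Grn-/-;GRNtg against wild type, and from 0.12 to 0.28 in Grn+/- against wild type. Taking the 9 genes together, 7 were positive in Grn-/-;GRNtg with a median of 0.10, and 6 were positive in Grn+/- with a median of 0.03. Over all genes the medians were 0.0050 and 0.0082, with 51.3% and 52.4% positive. The tables share the wild-type mice, so their signs are not independent.

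Partners of tau were examined in a pair of lists. Among kinases and phosphatases of tau, 3 of 22 were lower in humanized mice against wild type and 1 of 22 in Grn+/-, with 0 higher in each, where 3.05% and 4.51% of all genes were lower. The count in Grn+/- is near that background share. The list medians were 0.02 and 0.04 on the log2 scale. Ttbk2, a tau-tubulin kinase, fell by 0.34 (SE 0.108) in humanized mice and by 0.38 (SE 0.108) in Grn+/- in the authors' deposited tables. Its relative Ttbk1 fell by 0.27 (SE 0.074) and Ppp2r2c, a regulatory subunit of phosphatase 2A, by 0.13 (SE 0.043) in humanized mice in the authors' deposited table. Of 16 microtubule-associated proteins, 0 passed in humanized mice and 1 in Grn+/-: Map2, the dendritic relative of tau, fell by 0.25 (SE 0.067, adjusted p = 0.0092, the authors' deposited table). Map2 was at -0.16 ± 0.067 in humanized mice (adjusted p = 0.15, the authors' deposited table).

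Further FTD and ALS genes outside the 9 passed in a few cases. In Grn-/-;GRNtg against wild type 2 of 32 were lower and 0 higher, and in Grn+/- against wild type 4 of 31 were lower and 0 higher, with list medians of 0.02 in each. Over all genes 3.05% were lower in the humanized mice and 4.51% in Grn+/-. Kif5a, a motor of fast axonal transport, fell by 0.34 (SE 0.110) in humanized mice in the authors' deposited table. Nek1, a kinase of the DNA damage response, fell by 0.38 (SE 0.078) in Grn+/- (adjusted p = 0.00018, the authors' deposited table). Tia1, a stress granule protein, fell by 0.26 (SE 0.070) and Erbb4, a neuregulin receptor with a mean normalized count of 59.0, by 0.44 (SE 0.130) in Grn+/- in the authors' deposited table.

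When Grn-/-;GRNtg was set against Grn+/-, 1 of 158 pathway genes passed. Prph, the intermediate filament peripherin, was higher in Grn-/-;GRNtg than in Grn+/- by 0.47 ± 0.123 (adjusted p = 0.031, the authors' deposited table), at a mean normalized count of 49.6. Higher and lower genes made up 0.319% and 0.148% of that table. Over the 9 pathway lists, 0 genes were higher and 6 lower of 157 in Grn-/-;GRNtg against wild type, or 3.82% called, where 1.81% of all genes were higher and 3.05% lower. In Grn+/- against wild type 7 were higher and 10 lower of 155, or 10.97% called, where 6.80% of all genes were called, 2.29% higher and 4.51% lower.

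**Figure D3:**
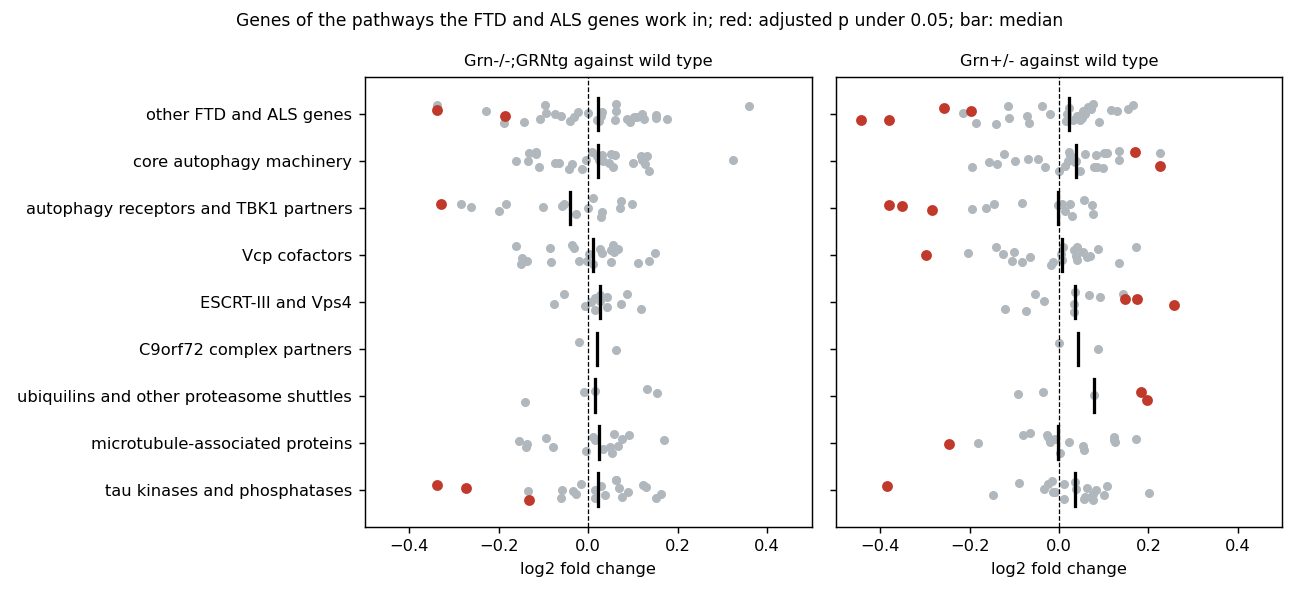
Log2 fold change (x axis) of every measured gene of the 9 pathway lists (rows), each point a gene, in Grn-/-;GRNtg (left) and Grn+/- (right) against wild type. Red points passed at adjusted p under 0.05, 6 on the left, all below 0, and 17 on the right, and black bars are the list medians, between -0.04 and 0.08.

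The makeup of the tissue was described by markers, since in bulk RNA fewer cells of a type and less RNA per cell cannot be told apart. The summed derived level of 10 cortical neuron markers was 207760 normalized counts in humanized mice, 228394 in Grn+/- and 210762 in wild type. Among them Snap25 rose in Grn+/- (0.29 ± 0.097, the authors' deposited table) and Camk2a fell by 0.20 (SE 0.055) in humanized mice in the authors' deposited table. In humanized mice 6 of the 10 markers were nevertheless above 0, with a list median of 0.05, Tubb3 being highest at 0.22 and Camk2a lowest in the authors' deposited table. In Grn+/- 7 of the 10 were above 0, with a list median of 0.12 beside 0.0082 over all genes. Camk2a has the highest count of the 10 markers and weighs most in their sum. The 8 oligodendrocyte markers summed to 81416 in humanized mice, 84845 in Grn+/- and 95050 in wild type, with 0 of 8 passing in any comparison. The 8 astrocyte markers summed to 74014 in humanized mice, 72839 in Grn+/- and 81293 in wild type. Slc4a4, a bicarbonate transporter, fell in both mutant groups, by 0.25 (SE 0.080) in each of the authors' deposited tables. The glutamate transporter Slc1a2 and the connexin Gja1 fell in Grn+/-, by 0.22 (SE 0.073) and 0.26 (SE 0.085) in the authors' deposited table. Thus 1 of 8 astrocyte markers was lower in humanized mice and 3 of 8 in Grn+/-, where 3.05% and 4.51% of all genes were, with 0 higher. Gfap went the other way, at 0.17 ± 0.137 and 0.04 ± 0.137, and did not pass. The list medians were -0.14 and -0.13. Markers of microglia, known as cells rich in Grn, summed to 8305 in humanized mice, 8154 in Grn+/- and 8612 in wild type, with 0 of 8 passing. Counts assigned to no gene were lower as well, at -0.18 ± 0.052 in humanized mice and -0.22 ± 0.052 in Grn+/- on the log2 scale of the authors' deposited tables. The part of these differences in the values of Sqstm1 and of the pathway genes was not tested.

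Genes with the pattern of Sqstm1 were looked for over the 3 genotypes. Of 618 other genes with a mean normalized count within a factor of 2, 33 lay within 0.05 of it in the plane of both log2 fold changes against wild type. The nearest were Tubb4a, Copg1 and Rab6a, at distances of 0.0053, 0.0054 and 0.0060. Copg1, a coatomer subunit, had 0.18 ± 0.056 in Grn+/- against wild type (adjusted p = 0.027, the authors' deposited table). Tubb4a (0.17 ± 0.074) and Rab6a (0.18 ± 0.077) had the same size with wider SEs and did not pass in the authors' deposited table. This likeness rests on 3 group means.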

How the data were processed

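Cortical RNA of 13 mice was sequenced from directional libraries, per the labels' protocols. Per the submitters' processing notes, the authors worked with mm10, DESeq2 1.34.0 and R 4.1.2. The aligner, counter and strand setting were not given in the sources used here. Each deposited table holds a mean normalized count, a signal averaged by the authors over all libraries, per its header. They also hold the authors' log2 fold change with its SE, and the Wald statistic, a score that the authors made as their ratio. The p-values and their Benjamini-Hochberg adjustment over each table are the authors' too, and recomputing the ratio and the adjustment from the deposited columns returned them. All SEs stay under 0.138, and whether the authors drew fold changes towards 0 was not given in the sources used here. Depth per mouse is unknown. Mean normalized counts summed to about 18113972 over genes, and 17.0% of all mean normalized counts were assigned to no gene and 0.606% were ambiguous. Replicates are separate mice, per the labels. Promoter entries came from RefSeq (GRCm38.p6) and gene positions from GENCODE M21.

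Genes counted as called at adjusted p under 0.05 over the whole table. Intervals are the log2 fold change plus or minus the normal 95% quantile of the SE. Recomputed adjustments were tested on simulated data. The 192 entries of 13 lists all had a row. The genes, the lists and the other settings were chosen with earlier results of these data known. Named genes are the 9, Grn, close relatives fixed by symbol, the listed genes that passed (up to 6 a list) and the 3 nearest patterns. Some genes that this rule would name are not reported here. Lengths were found for 13417 of 13482 genes. Python 3.11.15, numpy 2.4.6, pandas 2.3.3, scipy 1.17.1 and matplotlib 3.10.9 were used.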

Additional observations from a re-analysis of the deposited data

How the results depend on the processing

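The 27 results of the 9 genes were taken again under 7 alternatives. Only subtracting the median altered the fold changes themselves, so their directions could hardly change. The Bonferroni adjustment and the minimum fold change could only remove calls, and adjusted p under 0.1 could only add them. Of 189 values, 186 kept their direction and their side of the threshold, 3 lost the call and 0 reversed. The 3 were Sqstm1 in Grn+/- against wild type, so that 0 of 9 genes were called there with the Wald statistic divided by its robust spread, with Bonferroni adjustment, and when the log2 fold change also had to reach 0.3 in size. Counts over all genes moved more. In Grn-/-;GRNtg against wild type, 728 genes became 3 with the robust spread, 66 with Bonferroni, 454 with the minimum fold change and 1396 at adjusted p under 0.1. In Grn+/- against wild type, 917 became 6, 108, 499 and 1423 in the same order. Between the mutant groups, 82 became 30 with the robust spread, 22 with Bonferroni, 159 at adjusted p under 0.1, 43 when adjusted over the genes in all 3 tables and 36 with a mean normalized count of at least 100. The causes of these moves were not tested. Leaving out single mice was not run, since the tables hold no values per mouse. No paired analysis was possible because the columns carry no mouse numbers. The SE limits what can be seen: a log2 difference under 0.12 would have passed for none of the 9 genes in any comparison.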
